A study of Mus musculus with 12 samples.

Results

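The transcripts of 10 C-type lectin receptors were followed in mouse bone marrow-derived macrophages (BMDMs) across a drug and a stimulus. The members were Clec4a1, Clec4a2, Clec4a3, Clec4d, Clec4e, Clec4n, Clec5a, Clec7a, Clec10a and Clec12a, taken by gene symbol from a count table of 24421 genes, and all 10 were among the 11468 genes that passed the filter on low counts. Bone marrow of wild-type C57BL/6 mice was cultured with M-CSF (100 ng/mL) for 5 days, and the medium was changed on day 3. Cells were then exposed for 4 hours to ovalbumin (Ova), or to ovalbumin in an immune complex with rabbit IgG (IC), in the presence of the bromodomain inhibitor I-BET151 (iBET) at 5.0 µM or of its solvent DMSO, given in the labels as 5%. This gave 4 groups of 3 libraries, named DMSO Ova, DMSO IC, iBET Ova and iBET IC, with 1 library of each from mouse A, mouse B and mouse C. Drug and stimulus were added together per the labels and the drug first per the study's methods, so their order is uncertain. The study used mice of both sexes throughout, and the sex and age of each of these 3 mice are not given in the sources used here. The cells were a culture grown from whole marrow, of which adherent cells were harvested and replated per the study's methods. No group was left without ovalbumin.

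C-type lectin receptors are surface proteins of myeloid cells that bind sugars, lipids or proteins of microbes and of damaged cells through a lectin-like domain. Several signal through an immunoreceptor tyrosine-based activation motif (ITAM), either in a partner adaptor such as the Fc receptor gamma chain or DAP12 or as a single-tyrosine version in their own tail, and pass the signal to the kinase Syk and the adaptor Card9. Others carry an inhibitory motif (ITIM) that recruits phosphatases. The gamma chain is also the signalling partner of activating Fc gamma receptors, through which IgG complexes act, and bromodomain inhibitors such as I-BET151 displace the BET family of chromatin readers from acetylated histones.

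With iBET, 4 of the 10 members fell in Ova and the same 4 fell in IC: Clec4e (Mincle), Clec4d (MCL), Clec5a (MDL-1) and Clec4a2 (DCIR). Of all genes tested, 14.2% fell in Ova, 15.8% in IC and 11.6% in both. With IC, 1 member rose, Clec4e, in DMSO (0.732% of all genes) and in iBET (0.314% of all genes). The windows around the annotated starts of these 4 genes are shown first, because they are the members whose change was called. Each window runs from 250 bases before the start to 50 bases after it, 5′ to 3′ on the strand of the gene, from RefSeq on GRCm38.p6. Capitals mark matches to any of 6 short motifs on either strand.
Clec4e, minus strand of chr6:123289822-123290121: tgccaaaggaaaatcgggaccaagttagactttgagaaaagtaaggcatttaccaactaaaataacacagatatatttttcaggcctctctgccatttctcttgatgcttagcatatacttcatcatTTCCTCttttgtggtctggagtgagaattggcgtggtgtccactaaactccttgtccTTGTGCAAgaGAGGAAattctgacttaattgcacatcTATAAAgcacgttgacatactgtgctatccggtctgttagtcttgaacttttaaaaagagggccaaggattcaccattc
Clec4d, plus strand of chr6:123261857-123262156: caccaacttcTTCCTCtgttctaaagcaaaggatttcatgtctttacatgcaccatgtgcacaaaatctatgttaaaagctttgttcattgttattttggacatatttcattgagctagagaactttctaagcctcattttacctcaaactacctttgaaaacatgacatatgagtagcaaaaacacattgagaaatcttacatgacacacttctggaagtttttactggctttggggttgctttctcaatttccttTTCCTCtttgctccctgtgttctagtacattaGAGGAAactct
Clec5a, minus strand of chr6:40585756-40586055: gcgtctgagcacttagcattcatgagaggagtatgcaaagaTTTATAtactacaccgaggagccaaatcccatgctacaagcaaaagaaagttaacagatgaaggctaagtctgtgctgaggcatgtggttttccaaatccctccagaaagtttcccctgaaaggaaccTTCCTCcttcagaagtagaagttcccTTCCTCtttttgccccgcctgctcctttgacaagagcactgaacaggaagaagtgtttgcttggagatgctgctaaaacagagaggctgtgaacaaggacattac
Clec4a2, plus strand of chr6:123122440-123122739: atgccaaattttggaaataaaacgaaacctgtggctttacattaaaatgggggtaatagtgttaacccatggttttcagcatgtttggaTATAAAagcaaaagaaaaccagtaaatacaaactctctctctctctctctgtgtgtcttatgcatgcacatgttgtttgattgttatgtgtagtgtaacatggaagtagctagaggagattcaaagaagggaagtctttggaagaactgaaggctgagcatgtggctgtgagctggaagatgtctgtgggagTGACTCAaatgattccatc

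The motifs were the PU.1 core GAGGAA, the AP-1 motif TGANTCA, the C/EBP motif TTGCNNAA, an NF-kB motif of GGG, any 5 bases and CC, the TATA box TATAAA and the E-box CACGTG, with N for any base. RefSeq windows were found for 8 of the 10 members, and none was used for Clec4n and Clec10a. Clec4a3 and Clec7a had 2 windows each. A member was counted where any of its windows matched, while the shares of all genes are per window. The PU.1 core was present in the windows of 7 of these 8 members, all but Clec4a2, and in 28.3% of 32851 windows of all genes. Per window, 8 of the 10 member windows held it, with the same site of Clec7a counted in both of its overlapping windows. Clec4e held it at 123 and 56 bases before the start, Clec5a at 81 and 55 bases before, and Clec4d at 240 bases before and at 7 and 39 bases after. The TATA box was found in 4 of 8 members (13.6% of all windows), at 29 bases before the start in Clec4e, 161 before in Clec4a2, 209 before in Clec5a and 42 after in Clec7a. The C/EBP motif (10.8% of all windows) was found in 2 members, at 66 bases before the start in Clec4e and 140 before in Clec12a. The AP-1 motif (7.81% of all windows) was also found in 2, at 31 bases after the start in Clec4a2 and 213 before in Clec12a. The NF-kB motif was found in 50.8% of all windows and in the window of 1 member, Clec4a1. No member held the E-box, found in 7.15% of all windows. A match is a string of letters in these windows and not a measured binding site. The windows of Clec4a2 and Clec12a lie inside the longer spans that GENCODE gives for these genes.

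On mm10, 9 of the members lie on chromosome 6. Clec4a1 (122921848 to 122934619), Clec4a3 (122952515 to 122969875), Clec4a2 (123106428 to 123143999), Clec4n (123229843 to 123247021) and Clec4d (123262111 to 123275265) lie on the plus strand in that order, followed by Clec4e (123281789 to 123289870) on the minus strand. Clec12a (129342691 to 129365303, plus strand) and Clec7a (129461591 to 129472779, minus strand) lie further along, and Clec5a (40574894 to 40585821, minus strand) lies apart. Clec10a is on chromosome 11 (70156197 to 70170834, plus strand). No member has a gene model over it on the other strand. Clec4a1, Clec4a2 and Clec4a3 are close relatives of one another, Clec10a has a close relative in Mgl2, and Clec4a2 overlaps another gene model on its own strand, so their counts are uncertain where reads could be assigned to either gene.

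Libraries held between 7.55 M and 17.4 M counts. The ribosomal transcript Rn45s took 1.41% to 7.83% of the counts in 11 libraries and 77.4% in mouse A's DMSO Ova library, which left 1.77 M counts on other genes there against 7.25 M or more elsewhere. Counts of members and of listed genes called with iBET in the main test are given with and without it. Calls of named genes that changed without it are given too. Levels, ranks and most other values include it. The macrophage markers (7 of 7 present, led by Lyz2) summed to 6109 to 8361 CPM over the 12 libraries, where CPM is the count scaled to a common library size by TMM. The markers of dendritic cells summed to at most 1.74 CPM, with Flt3, Ccr7 and Xcr1 under 1 CPM in every library. Those of mast cells and basophils (Cpa3, Mcpt8 and Ms4a2 at 0) summed to at most 1.76 CPM, and Nkg7, a marker of cytotoxic lymphocytes, was at 0. The neutrophil markers (6 of 7 present, led by S100a9) summed to 7.70 to 50.4 CPM, with overlapping ranges in the 4 groups. The monocyte marker Ccr2 moved with the drug. It was at 192 to 242 CPM in DMSO Ova, 17.3 to 32.9 CPM in iBET Ova, 138 to 158 CPM in DMSO IC and 21.4 to 28.7 CPM in iBET IC. Ly6c2, another monocyte marker, was between 0 and 1.81 CPM. The part of this shift in the member results below was not tested, and in bulk RNA fewer cells of a type and less RNA per cell cannot be told apart.

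Levels were compared between members per kilobase of annotated exon. In DMSO Ova, Clec12a was highest at 135 ± 21.5 CPM per kb (SD, n = 3), followed by Clec4d at 93.1 ± 5.32 CPM per kb, with no overlap between their libraries. Clec4a2 (28.8 CPM per kb), Clec7a (19.5), Clec5a (17.6), Clec4e (17.5), Clec4a3 (17.2) and Clec4a1 (11.8) came next, and each overlapped its neighbour in this order. Clec4n (1.29 ± 0.897 CPM per kb) and Clec10a (1.22 ± 0.280 CPM per kb) were lowest and overlapped each other. Their counts per library were 2 to 43 for Clec4n and 8 to 51 for Clec10a, and both fall out when 10 counts are required in every library.

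Clec12a and Clec4d kept the first and second rank in every group, and Clec4e, Clec7a, Clec4a3 and Clec5a each moved over 3 places. Clec4e ranked 6 of 10 in DMSO Ova and in iBET Ova (7.31 ± 1.22 CPM per kb) and 3 of 10 in DMSO IC (51.0 ± 15.6 CPM per kb) and iBET IC (31.0 ± 5.95 CPM per kb). In both IC groups no library of Clec4e overlapped the member below it in the order. In iBET IC it overlapped Clec4d (42.6 ± 9.38 CPM per kb) above it. In DMSO IC Clec12a and Clec4d overlapped at the top (129 ± 43.7 and 124.5 ± 31.95 CPM per kb). The summed level of the 10 members, of which Clec12a was the largest share, was 1110 to 1327 CPM in DMSO Ova, 819 to 855 CPM in iBET Ova, 1214 to 1687 CPM in DMSO IC and 767 to 1004 CPM in iBET IC.

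**Figure D1:**
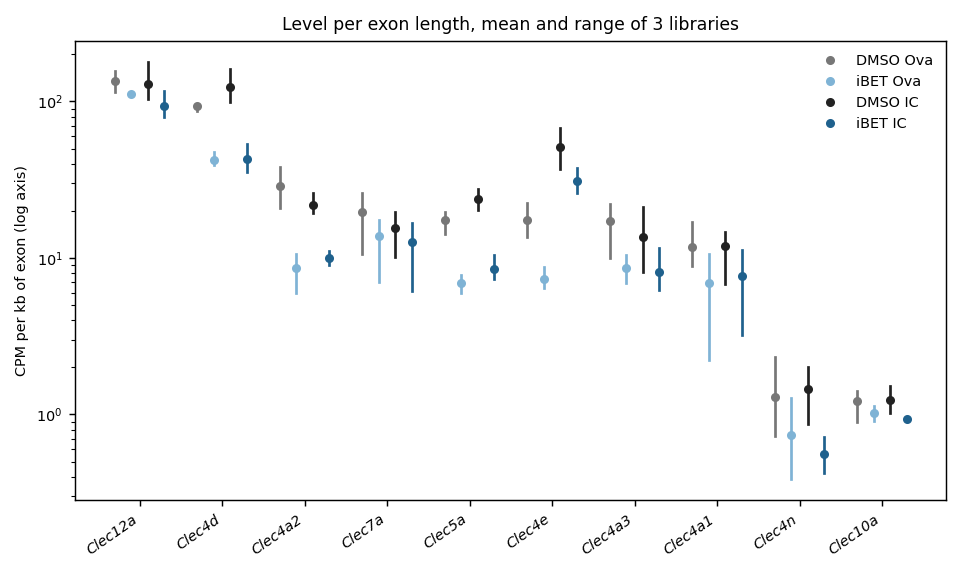
Level of each member per kilobase of exon (CPM per kb, log axis) in the 4 groups, with points for the mean and bars for the lowest and highest of 3 libraries. Clec12a and Clec4d lie at the top, Clec4n and Clec10a near 1 CPM per kb, and Clec4e ranks 6 of 10 in the Ova groups and 3 of 10 in the IC groups.

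The comparison of iBET with DMSO asked what the inhibitor changes in each stimulation. In edgeR's quasi-likelihood test, with p-values adjusted by Benjamini-Hochberg over all genes and a call at an adjusted p under 0.05, 4 of 10 members were lower in Ova and 0 higher. The background was 14.2% of all genes called lower and 17.1% called higher. In IC, 4 were lower and 0 higher, where 15.8% of all genes were lower and 19.0% higher. The same 4 members were lower in both, against 11.6% of all genes. All 10 fitted changes were below 0 in each stimulation, where 48.4% of all genes were below 0 in Ova and 50.3% in IC. The median log2 fold change of the members was -0.97 in Ova and -0.73 in IC, beside 0.02 and -0.00366 over all genes. The 3 iBET libraries lay below the 3 DMSO libraries in 5 members in Ova (19.9% of all genes) and in 5 members in IC (22.3%). Because each mouse gave a library to every group, mouse could be added as a block, and 7 members were then lower in Ova (17.9% of all genes) and 7 in IC (19.8%). Without mouse A's DMSO Ova library, the same 4 members were lower in both stimulations, beside 1756 of 11667 genes in Ova and 2203 in IC. Without mouse B, 3 members were lower in each. That fit called fewer genes of any kind, with 595 of 11484 lower in Ova and 801 in IC, against 1630 and 1810 of 11468 with all mice.

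**Figure D2:**
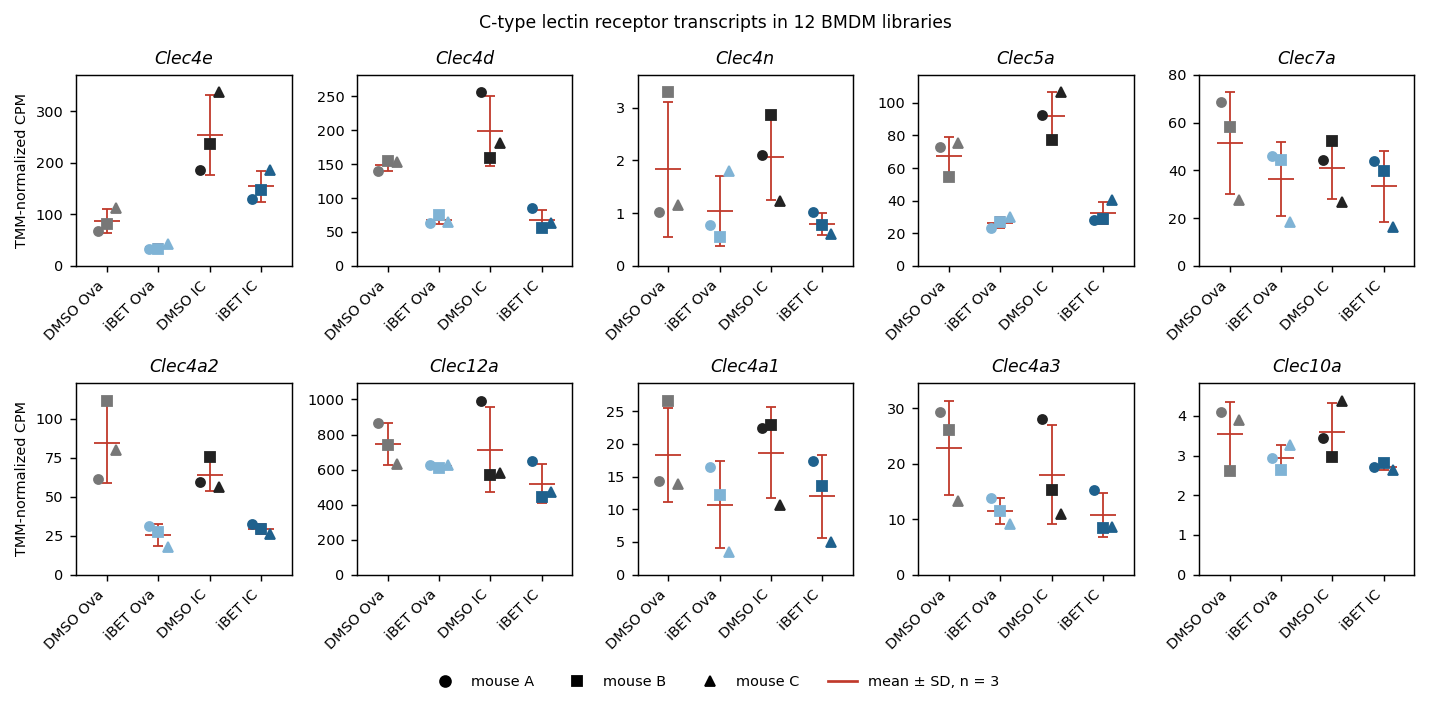
TMM-normalized CPM of each member in the 12 libraries, 1 panel per gene on its own linear axis from 0, with a marker shape per mouse and red bars for mean ± SD of 3. Clec4e is highest in DMSO IC, Clec5a, Clec4d and Clec4a2 are lower in both iBET groups, and Clec7a and Clec4a1 are lowest in mouse C in every group.

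Clec4e encodes Mincle, which binds mycobacterial glycolipids and a nuclear protein released by dying cells and signals through the gamma chain. In mice A, B and C it stood at 67.3, 81.8 and 111.5 CPM in DMSO Ova and at 33.7, 32.0 and 43.2 CPM in iBET Ova. The groups did not overlap. It was 2.42-fold lower with iBET (log2 fold change -1.28, edgeR adjusted p 0.00247, SE 0.25, 3 of 3 mice), and this call was lost without mouse B (adjusted p 0.0782). In DMSO IC it stood at 185, 237 and 337 CPM, and in iBET IC at 129, 146 and 186.5 CPM. The highest iBET library, of mouse C, was just above the lowest DMSO library, of mouse A, so these groups overlapped, although within each mouse the iBET library was lower. The change was 1.65-fold (log2 fold change -0.72, adjusted p 0.0358, SE 0.24). This was the least certain of the 4 calls in IC. It fell away when 1 library was left out in 4 of 12 cases, which were those without the DMSO IC library of mouse B or C or the iBET IC library of mouse A or B, with a highest adjusted p of 0.136 without that of mouse C in DMSO IC. It was also lost without mouse A and without mouse B (0.215). With mouse as a block, Clec4e had an adjusted p of 4.58e-06 for Ova and 0.000183 for IC.

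Clec4d encodes MCL, a receptor of mycobacterial glycolipid that pairs with Mincle at the cell surface and lies beside it in the genome. It was at 139, 155 and 153 CPM in DMSO Ova and at 62.9, 75.5 and 65.4 CPM in iBET Ova. In IC it was at 256.5, 159 and 182 CPM in DMSO and at 85.1, 56.5 and 62.9 CPM in iBET. Every iBET library was below every DMSO library of either stimulation. Clec4d was 2.20-fold lower with iBET in Ova (log2 fold change -1.14, edgeR adjusted p 0.000609, SE 0.18) and 2.91-fold lower in IC (-1.54, adjusted p 5.76e-05, SE 0.18), in 3 of 3 mice each. Both calls held in all 15 fits without 1 library or 1 mouse.

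Clec5a encodes MDL-1, which signals through DAP12 and binds flaviviruses. It was at 72.9, 54.5 and 75.1 CPM in DMSO Ova and at 23.1, 26.7 and 29.8 CPM in iBET Ova. In IC it was at 92.5, 77.2 and 106.5 CPM in DMSO and at 28.2, 29.1 and 40.2 CPM in iBET. Again no iBET library reached a DMSO library. The change was 2.54-fold in Ova (log2 fold change -1.34, edgeR adjusted p 0.000162, SE 0.18) and 2.85-fold in IC (-1.51, adjusted p 5.22e-05, SE 0.18), in 3 of 3 mice each, and both calls held in all 15 fits without 1 library or 1 mouse.

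Clec4a2 encodes DCIR, an ITIM-bearing receptor that restrains myeloid cells. It was at 61.1, 111.5 and 80.1 CPM in DMSO Ova and at 31.1, 27.4 and 17.6 CPM in iBET Ova, so the DMSO libraries were spread and the groups were apart. In IC it was at 59.4, 75.7 and 56.3 CPM in DMSO and at 32.3, 29.2 and 26.2 CPM in iBET. Its fall in Ova was the largest of any member in either stimulation, at 3.36-fold (log2 fold change -1.75, edgeR adjusted p 0.000221, SE 0.24), and it fell 2.17-fold in IC (-1.12, adjusted p 0.00303, SE 0.23), in 3 of 3 mice each. Both calls held in all 15 fits without 1 library or 1 mouse. Mouse A gave the smallest change in both stimulations (-0.97 in Ova and -0.87 in IC on the log2 scale).

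The other members were not called in either stimulation in edgeR over the 12 libraries without the block. Clec7a encodes Dectin-1, the receptor of fungal beta-glucan, which carries the single-tyrosine activation motif in its own tail. It was at 68.8, 58.0 and 27.8 CPM in DMSO Ova and 46.2, 44.2 and 18.4 CPM in iBET Ova. It was at 44.3, 52.2 and 26.7 CPM in DMSO IC and 43.9, 39.6 and 16.2 CPM in iBET IC. Mouse C was lowest in each of the 4 groups, and the iBET library was below the DMSO library of the same mouse in 3 of 3 mice in both stimulations. The log2 fold change was -0.46 in Ova (edgeR adjusted p 0.487, SE 0.46) and -0.29 in IC (adjusted p 0.656, SE 0.46). With mouse as a block it was called lower in both (-0.51, adjusted p 0.009, SE 0.13 in Ova and -0.36, adjusted p 0.0384, SE 0.13 in IC).

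Clec4a1 and Clec4a3 encode DCIR family members that lack the inhibitory motif. Clec4a3 ranged over 13.2 to 29.3 CPM in DMSO Ova, 9.14 to 13.9 CPM in iBET Ova, 10.9 to 27.9 CPM in DMSO IC and 8.33 to 15.3 CPM in iBET IC. The DMSO and iBET ranges overlapped in both stimulations, and each mouse was lower with iBET. Its log2 fold change was -0.93 in Ova (edgeR adjusted p 0.104, SE 0.40) and -0.73 in IC (adjusted p 0.173, SE 0.39), and with mouse as a block it was called lower in both (adjusted p 0.00198 and 0.0101). In Ova it was also called by DESeq2 without a block (adjusted p 0.0357), with the compared groups fitted alone, and without mouse A's DMSO IC library or mouse C's DMSO Ova library (lowest adjusted p 0.0416). Clec4a1 ranged over 13.9 to 26.6 CPM in DMSO Ova, 3.50 to 16.5 CPM in iBET Ova, 10.7 to 22.9 CPM in DMSO IC and 5.03 to 17.5 CPM in iBET IC, with mouse C lowest in each group. Its log2 fold change was -0.80 in Ova (adjusted p 0.312, SE 0.56), with 2 of 3 mice lower, and -0.61 in IC (adjusted p 0.413, SE 0.54). With the block it was called in Ova (-1.03, adjusted p 0.0174, SE 0.29) and not in IC (adjusted p 0.0713), where DESeq2 with the block called it (adjusted p 0.0373).

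Clec12a encodes an ITIM-bearing receptor of uric acid crystals and dead cells. It was at 868.5, 739.5 and 631 CPM in DMSO Ova and at 624, 610.5 and 627 CPM in iBET Ova, so the iBET libraries lay together just under the lowest DMSO library. It was at 993, 569 and 581 CPM in DMSO IC and at 649, 441 and 471 CPM in iBET IC, where the groups overlapped. The log2 fold change was -0.26 in Ova (edgeR adjusted p 0.385, SE 0.22) and -0.46 in IC (adjusted p 0.122, SE 0.22). In IC it was called with mouse as a block (-0.44, adjusted p 0.021, SE 0.14) and without mouse A (adjusted p 0.0293).

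Clec4n encodes Dectin-2, a receptor of fungal mannan that signals through the gamma chain, and was close to the limit of these libraries. It was at 1.03, 3.30 and 1.16 CPM in DMSO Ova, from 2, 43 and 14 counts, and at 0.772, 0.551 and 1.81 CPM in iBET Ova. In DMSO IC it was at 2.10, 2.86 and 1.24 CPM and in iBET IC at 1.01, 0.775 and 0.599 CPM, with no overlap. Its log2 fold change was -1.01 in Ova (edgeR adjusted p 0.177, SE 0.54), with 2 of 3 mice lower, and -1.29 in IC (adjusted p 0.0748, SE 0.53), with 3 of 3. The value in Ova became 0.14 without mouse B, and Clec4n was called there without mouse C (adjusted p 0.0346). In IC it was called without mouse C's DMSO IC library or mouse B's DMSO Ova library (lowest adjusted p 0.0472) and with the compared groups fitted alone. Clec10a encodes MGL1, a receptor of galactose and N-acetylgalactosamine that marks alternatively activated macrophages. It was between 2.61 and 4.38 CPM in the 6 DMSO libraries and between 2.64 and 3.27 CPM in the 6 iBET libraries. Its log2 fold change was -0.20 in Ova (adjusted p 0.602, SE 0.25) and -0.40 in IC (adjusted p 0.203, SE 0.23). In IC the 3 iBET libraries lay under the 3 DMSO libraries.

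**Figure D3:**
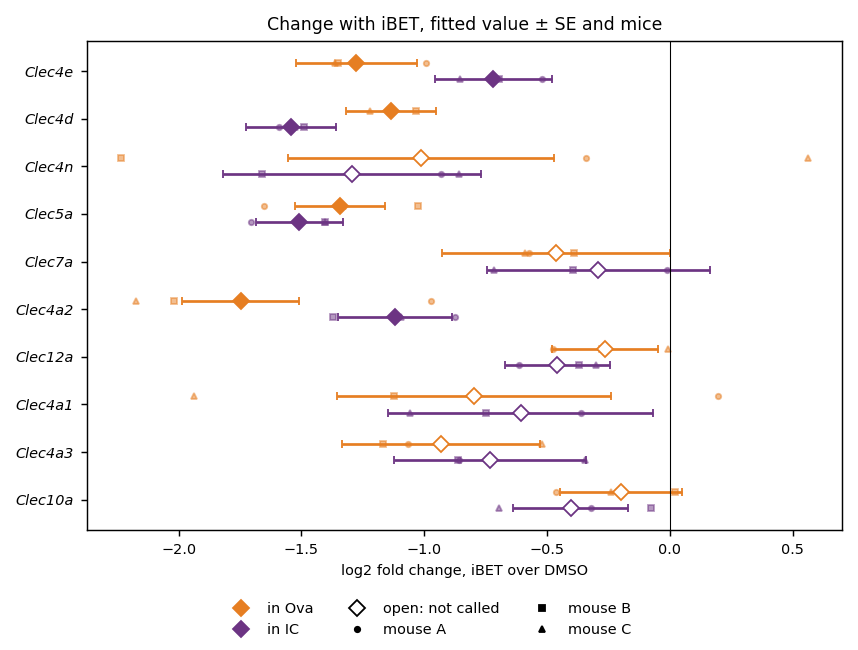
Log2 fold change with iBET over DMSO for each member in Ova and in IC. Diamonds are fitted values with bars of 1 SE, filled where called, and small markers are single mice (differences of log2 CPM and a prior count of 2). All diamonds lie left of 0, and the filled ones are Clec4e, Clec4d, Clec5a and Clec4a2 in both stimulations.

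The comparison of IC with Ova asked which receptor transcripts respond when the antigen arrives as an immune complex. The DMSO Ova and DMSO IC libraries enter both this comparison and those with iBET, so the 2 kinds of change are not independent. Of the 10 members, 1 was called higher in DMSO (0.732% of all genes) and 1 in iBET (0.314% of all genes), and in both arms it was Clec4e. It rose 2.88-fold in DMSO (log2 fold change 1.53, edgeR adjusted p 0.0122, SE 0.25) and 4.24-fold in iBET (2.08, adjusted p 0.0038, SE 0.25). Single mice A, B and C rose by 1.46, 1.53 and 1.59 in DMSO and by 1.93, 2.19 and 2.10 in iBET on the log2 scale. In each arm the lowest IC library was above the highest Ova library. The call in DMSO was lost without mouse A's DMSO Ova library (adjusted p 0.052) or that of mouse B (0.0896) and without mouse A or mouse B (0.625). It was also lost when the compared groups were fitted alone, where 4 of 11141 genes were called higher. The call in iBET was lost without mouse B (adjusted p 0.756). In that fit 0 of 11484 genes were called with IC in either arm. Over the fits without 1 mouse, the log2 fold change of Clec4e was 1.487 to 1.578 in DMSO and 2.035 to 2.171 in iBET. With mouse as a block the adjusted p was 2.52e-05 in DMSO and 1.62e-06 in iBET.

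The level of Clec4e in iBET IC (129 to 186.5 CPM) lay above that in DMSO Ova (67.3 to 111.5 CPM), with no overlap. The other 9 members were not called with IC in either arm. In DMSO, 3 members had every IC library above every Ova library (7.80% of all genes), Clec4e, Clec4d and Clec5a, and in iBET 1 did (9.53% of all genes), Clec4e. Clec5a changed by 0.46 in DMSO (edgeR adjusted p 0.308, SE 0.18, 3 of 3 mice higher) and by 0.29 in iBET (adjusted p 0.792, SE 0.18, 3 of 3 mice higher). With mouse as a block the first value had an adjusted p of 0.0601 and was called by DESeq2 with the block (adjusted p 0.0179). Clec4d, the neighbour of Clec4e, changed by 0.42 in DMSO (adjusted p 0.396, SE 0.18), with mouse A at 0.88 and mouse B at 0.04, and by 0.01 in iBET (adjusted p 1.00, SE 0.18), where the mice went from -0.42 to 0.43. Clec4a2 changed by -0.42 in DMSO (adjusted p 0.542, SE 0.23) and 0.21 in iBET (adjusted p 0.907, SE 0.24). The remaining 6 ranged from -0.29 to 0.18 over both arms. The median of the 10 members was -0.01 in DMSO and -0.04 in iBET, beside -0.01 for all genes in each.

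**Figure D4:**
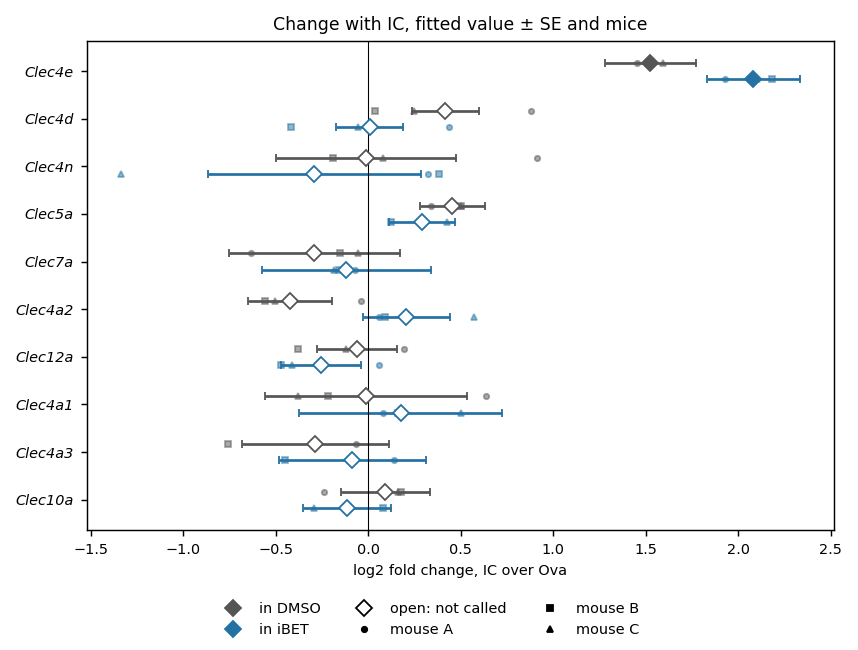
Log2 fold change with IC over Ova for each member in DMSO and in iBET, drawn as in the plot of the iBET changes. Clec4e stands at 1.53 and 2.08 with its 3 mice close together, and the open diamonds of the other members lie between -0.42 and 0.46.

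Whether the IC response differed between arms was tested by the interaction, the response in iBET minus that in DMSO. It called 0 of 10 members and 0 of all genes (0%) in edgeR, 0 members had an unadjusted p under 0.05, and DESeq2 also called 0 members. The value for Clec4e was 0.56 (SE 0.34, unadjusted p 0.13, adjusted p 1.00), in 3 of 3 mice. With mouse as a block it was 0.55 (SE 0.15, unadjusted p 0.00293), and 1.00 after adjustment over all genes. Clec4a2 had 0.63 (SE 0.33, unadjusted p 0.0809) and Clec4d -0.41 (SE 0.26, unadjusted p 0.138), each with the same sign in 3 of 3 mice. A smaller or larger response of Clec4e in iBET was therefore not shown, and the absence of a difference was not shown either.

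The genes through which these receptors signal were taken from 3 lists. Of 20 adaptors and proximal kinases, 1 was higher and 8 were lower with iBET in Ova, and 3 were higher and 8 lower in IC. Of all genes, 17.1% were called higher and 14.2% lower in Ova, and 19.0% and 15.8% in IC. Without mouse A's DMSO Ova library the list had 2 higher and 8 lower in Ova and 4 and 10 in IC. Of 11667 genes, that fit, also used for the other lists below, called 1622 higher and 1756 lower in Ova. In IC it called 2266 higher and 2203 lower. Both adaptors of the activating members, Fcer1g (the gamma chain) and Tyrobp (DAP12), were not called. Fcer1g stood at 482 ± 32.2 CPM in DMSO Ova and 536 ± 121 CPM in iBET Ova (log2 fold change 0.15, edgeR adjusted p 0.604, SE 0.20), and its value in IC was -0.14 (adjusted p 0.632). The sign in Ova turned without mouse A. Tyrobp stood at 161.5 ± 15.2 and 190.1 ± 18.6 CPM in the same groups (0.23, adjusted p 0.146, SE 0.11) and changed by 0.22 in IC (adjusted p 0.157).

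Syk, the kinase that binds the activated motifs, fell from 259 ± 26.6 to 169 ± 10.9 CPM in Ova (log2 fold change -0.61, edgeR adjusted p 0.000915, SE 0.11) and by 0.49 on the log2 scale in IC (adjusted p 0.00316). Fgr, a Src family kinase of myeloid cells, fell furthest of the list, from 12.2 ± 2.16 to 1.63 ± 0.538 CPM in Ova (-2.92, adjusted p 9.89e-06, SE 0.27) and by 2.63 in IC (adjusted p 1.05e-05). The adaptor Blnk fell by 1.20 in Ova (adjusted p 0.00117) and 1.40 in IC (adjusted p 0.000332), and the kinase Btk by 0.83 and 0.76 (adjusted p 0.000105 and 0.000158). Prkce, a protein kinase C, rose by 1.24 in Ova (adjusted p 0.000288) and 1.54 in IC (adjusted p 3.97e-05). The calls of Fgr, Blnk, Btk and Prkce held in all 15 fits without 1 library or 1 mouse, and those of Syk were lost without mouse B (adjusted p 0.0644 in Ova and 0.108 in IC). Btk and Prkce lie over annotated genes of the other strand, so their counts are uncertain.

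Of 15 tested genes of the Card9 module and its outputs, 5 were higher and 1 lower with iBET in Ova and 5 higher and 2 lower in IC, beside 17.1% and 14.2% of all genes in Ova and 19.0% and 15.8% in IC. Card9 itself was at 12.0 ± 1.06 CPM in DMSO Ova and was not called (log2 fold change -0.28, edgeR adjusted p 0.289 in Ova and -0.31, adjusted p 0.21 in IC). Its partner Bcl10 rose by 0.57 in Ova (adjusted p 0.00118) and 0.54 in IC (adjusted p 0.00128), and these calls held in all 15 fits without 1 library or mouse. Nfatc2, a transcription factor downstream of calcium, fell by 0.40 and 0.46 (adjusted p 0.0118 and 0.00429), calls that were lost without mouse B (0.162 and 0.112) and, in Ova, without mouse C. Hras was higher in Ova (0.55, adjusted p 0.0103), lost without mouse B (0.131) or C, and had 0.33 in IC (adjusted p 0.0782), called with the block. Tab1 was lower in IC (-0.65, adjusted p 0.0193), lost without mouse A's or mouse B's iBET IC library and without mouse B (0.204) or C. In Ova it had -0.40 (adjusted p 0.147), called without mouse A's DMSO Ova library (0.0187). Without that library the Card9 list had 3 higher and 3 lower in Ova and 4 and 2 in IC.

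Of 9 tested phosphatases and other brakes, 1 was higher and 3 lower with iBET in Ova and 2 higher and 3 lower in IC, against the same shares of all genes (17.1% and 14.2% in Ova, 19.0% and 15.8% in IC). Without mouse A's DMSO Ova library 1 was higher and 2 were lower in Ova, with 2 and 3 in IC. Ptpn6, which encodes SHP-1, the phosphatase that binds the inhibitory motif, went from 285 ± 64.0 to 155.5 ± 10.4 CPM in Ova (log2 fold change -0.87, edgeR adjusted p 0.0331, SE 0.27) and stood at 263.5 ± 128 and 121 ± 12.1 CPM in DMSO IC and iBET IC (-1.12, adjusted p 0.00881, SE 0.28). The call in Ova was lost in 5 of 12 fits without 1 library, which were those without an Ova library other than mouse C's in DMSO, and without mouse B (highest adjusted p 0.137) or C. The call in IC held in those 15 fits. Inpp5d, the lipid phosphatase SHIP1, was not called (-0.13 in Ova, adjusted p 0.515, and -0.01 in IC, adjusted p 0.946, a sign that turned in 5 of 15 fits), and was called in Ova without mouse A (0.0132). Ptprc, which encodes the phosphatase CD45, fell by 0.62 in Ova (adjusted p 0.00019) and 0.47 in IC (adjusted p 0.00112, lost without mouse B at 0.0592). Dok3 fell by 0.61 and 0.47 (adjusted p 0.00612 and 0.0198), both lost without mouse B or C, and in IC also without 3 single libraries, mouse C's DMSO IC library and the iBET IC libraries of mice A and B. Ptpn11, which encodes SHP-2, rose by 0.46 in IC (adjusted p 0.0242), lost without 4 single libraries (those of mice B and C in DMSO IC and of mice A and B in iBET IC) and without mouse B (0.215) or C. In Ova it had 0.38 (adjusted p 0.0664), called with the block and without mouse A's DMSO Ova library or mouse A. Card9 and Ptpn6 overlap annotated genes on the opposite strand and Ptprc and Ptpn11 on their own strand, so their counts are uncertain.

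**Figure D5:**
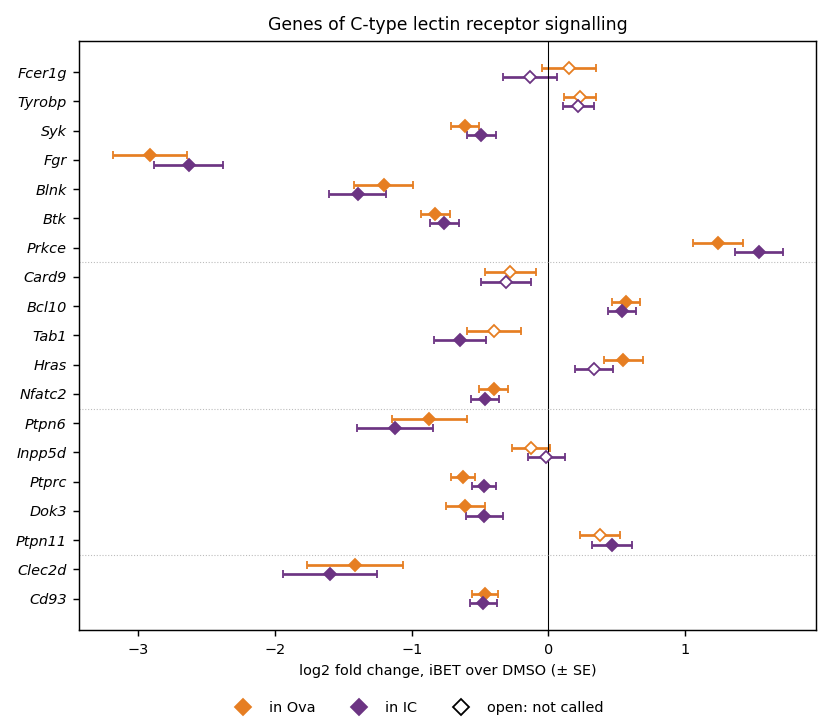
Log2 fold change with iBET over DMSO (fitted value, bars of 1 SE, filled where called) for named genes of the 3 signalling lists and the wider family in Ova and in IC. Dotted lines part adaptors and kinases, the Card9 module, phosphatases and other brakes, and other C-type lectin genes. Fgr lies furthest left at -2.92 and -2.63, while Fcer1g, Tyrobp, Card9 and Inpp5d are open in both.

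With IC, edgeR called 0 of the 44 tested genes of these 3 lists in either arm, with 6 at an unadjusted p under 0.05 in DMSO and 3 in iBET. Of all 11468 genes, 140 and 40 were called in DMSO and iBET, and 1341 and 860 had an unadjusted p under 0.05. DESeq2 called 1 in DMSO and 0 in iBET, the block in edgeR 2 and 0, and DESeq2 with the block 2 and 2. Of all genes, these fits called 270 and 99 of 16759, 315 and 85 of 11468, and 426 and 176 of 16759. Of 39 other genes with a C-type lectin domain, 14 passed the filter. With iBET, 0 were higher in either stimulation, while 2 were lower in Ova (Cd93 and Clec2d) and 4 in IC (these and, named after their values were seen, Clec4b1 and Klra2), where 14.2% and 15.8% of all genes were lower. Without mouse A's DMSO Ova library 17 genes of this family were tested, with 3 lower in Ova and 4 in IC. With mouse as a block, 3 of the 14 were lower in Ova (17.9% of all genes) and 4 in IC (19.8%). That fit also called 1 of them higher in IC, beside 2564 of 11468 genes. Clec2d, a ligand of a natural killer cell receptor, fell by 1.42 in Ova (edgeR adjusted p 0.0102) and 1.60 in IC (adjusted p 0.00394), and Cd93 by 0.46 and 0.48 (adjusted p 0.003 and 0.00223). The 4 calls were lost without mouse B (adjusted p 0.113 and 0.0893 for Clec2d, 0.128 and 0.0888 for Cd93). Clec4b1 (adjusted p 0.0494) lost its call in 8 of 12 fits that left out 1 library (the adjusted p reached 0.166 without mouse A's DMSO IC library) and in all 3 that left out 1 mouse. Klra2 (adjusted p 0.0398) lost it in 5 of 12 and in all 3, with the highest (0.208) without mouse B. The 1 gene of this family called with IC was Olr1, which encodes the oxidized lipoprotein receptor LOX-1. It stood at 1.42 ± 0.557 CPM in DMSO Ova and 5.03 ± 1.13 CPM in DMSO IC (log2 fold change 2.03, adjusted p 0.031, SE 0.40) and at 1.15 ± 0.607 CPM in iBET Ova and 5.38 ± 1.52 CPM in iBET IC (2.18, adjusted p 0.022, SE 0.37), and lost these calls in 6 and 4 of the 12 fits without 1 library. Without mouse B, where 0 of all genes were called with IC, its adjusted p was 0.857 and 1.00, and both calls were also lost without mouse C. Clec4e and Olr1 were thus the family's called genes with IC, and Olr1 was not called with iBET (-0.03 in Ova and 0.12 in IC).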

How the data were processed

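Total RNA libraries (SMARTer pico kit) of BMDMs from 3 mice in 4 groups were analysed. Per the labels and the study's methods, the authors trimmed reads with Trim Galore, checked them with FastQC, aligned them to mm10 with HISAT2 and assigned them with featureCounts. The deposited counts per gene symbol were the values tested. Versions, annotation, strand and multi-mapped reads are not given in the sources used here, so reads of close relatives may be split. A second deposited table holds a normalized signal, counts divided by a size factor per library. Whole reads were recovered from it for 100% of 293052 values (within 0.001 reads), all equal to the count table, and a count test on them was added after seeing the data.

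The filterByExpr rule of edgeR 4.0.16 under R 4.3.3 (minimum count 10) left 11468 of 24421 genes, which were scaled by TMM and fitted by a robust quasi-likelihood model with 1 term per group over 12 libraries. Tests were two-sided, and the Benjamini-Hochberg adjustment ran over all of these genes. SE was taken as the size of the log2 fold change over the square root of F. CPM per kb divides CPM by the union exon length in GENCODE vM21. P-values of this fit rest on the spread between cultures of 3 mice, estimated over the 4 groups together. Those with mouse as a block rest on the spread left once differences between mice are taken out. The fit was tested on simulated data.

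Pairing comes from the labels, which name the mouse. Over 18 pairs of libraries of the same mouse, deviations from group means correlated across genes at -0.0725 to 0.542 (median 0.263, 12 pairs above 0.1). The fit without a block was kept as the main one.

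The members, gene lists, markers and motifs were chosen with earlier results of these data known. From each list, up to 4 genes with the largest called change with iBET (mean count of at least 50, same direction in 3 of 3 mice) and any called with IC were named, and Fcer1g, Tyrobp, Syk, Card9, Ptpn6 and Inpp5d whatever they showed. The summed levels of the lymphocyte and monocyte markers are not reported here. Alternatives were DESeq2 1.42.0, its size factors in edgeR, mouse as a block in both, no filter or 10 counts in every library, 1 surrogate variable (sva 3.50.0), removal of Rn45s, the compared groups alone, the normalized signal in limma 3.58.1 with a pseudocount of 1 or 0.5, an adjusted p under 0.01, and each library or mouse left out.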

Additional observations from a re-analysis of the deposited data

How the results depend on the processing

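With mouse as a block, 7 members were called with iBET in Ova and 7 in IC in edgeR, where 4 and 4 had been called, and 7 and 8 in DESeq2 with the block (Clec4a1 the added one in IC). All were lower, beside 2134 and 2361 of 16759 genes called lower in DESeq2 with the block. Without a block, Clec4a3 was the fifth call in Ova in DESeq2 and with the compared groups alone, and Clec4n was called in IC with the compared groups alone. Of all genes, DESeq2 called 1815 of 16759 lower in Ova. The compared groups alone gave 1524 of 11098 genes lower in Ova and 1692 of 11172 in IC. For IC in DMSO, where Clec4e was called, the count was 2 in DESeq2 with the block (Clec4e and Clec5a), beside 228 of 16759 genes called higher. The count was 0 with the compared groups fitted alone (4 of 11141 genes called higher) and 0 at an adjusted p under 0.01. Without single libraries or mice it was between 0 and 1 there and in iBET, and the block changed no call for IC in either arm in edgeR. Of the 10 called member results, 255 of 270 alternative fits kept the call, 15 lost it and 0 changed sign. These include the fit on the recovered reads, which equal the count table and so had to keep every call. They leave out the threshold of 0.01, which Clec4e did not pass with iBET in IC (edgeR adjusted p 0.0358) or with IC in DMSO (0.0122). The call of Clec4e with iBET in IC was also lost with no low-count filter and with the compared groups alone.
The changes of sign concern values that were not called in the report. For IC in DMSO, Clec4a1 was 0.0171 in DESeq2 and 0.0154 and 0.0153 in the normalized signal with a pseudocount of 1 and 0.5, Clec12a was 0.0325 with 1 surrogate variable, and Clec4n was 0.0533 in DESeq2, 0.0234 and 0.117 with the block in edgeR and DESeq2, and 0.286 and 0.297 in the normalized signal. For IC in iBET, Clec4a3 was 0.000936 with 1 surrogate variable, and Clec4d was -0.0134 and -0.00588 with the block in edgeR and DESeq2 and -0.00592 and -0.00594 in the normalized signal. Without single libraries or mice, other values crossed 0. For IC in DMSO, Clec10a ran from -0.13 to 0.26, Clec12a from -0.37 to 0.0791, Clec4a1 from -0.28 to 0.41 and Clec4n from -0.38 to 0.85. For the interaction, Clec10a ran from -0.37 to 0.0189, Clec12a from -0.38 to 0.12, Clec4a1 from -0.23 to 0.66, Clec4a3 from -0.17 to 0.67, Clec4n from -1.15 to 0.57 and Clec7a from -0.14 to 0.50. For IC in iBET, Clec4a1 ran from -0.23 to 0.65, Clec4a3 from -0.46 to 0.0805, Clec4d from -0.21 to 0.21, Clec4n from -0.72 to 0.43 and Clec7a from -0.43 to 0.20. For iBET in Ova, Clec4n ran from -1.98 to 0.14 and Fcer1g from -0.0315 to 0.33. For iBET in IC, Clec7a ran from -0.55 to 0.0297 and Inpp5d from -0.15 to 0.068. The cause was not tested. With 3 libraries per group and 2 to 43 counts for Clec4n and 8 to 51 for Clec10a, counting error limits the precision of both.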
